A study of Mus musculus with 8 samples.

Results

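Hox genes encode homeodomain transcription factors that give cells their position along the head-to-tail axis of the embryo and along the limbs. In mice they stand in clusters named Hoxa, Hoxb, Hoxc and Hoxd, where the order of the genes follows the body level at which each is switched on, from paralogue group 1 at the anterior end to group 13 at the posterior end. Fibroblasts are known to keep the Hox pattern of the body site they come from, and Polycomb and trithorax proteins hold that pattern. The 38 Hox genes described here were taken by name, without use of any measured value, from the RefSeq annotation of the GRCm38 assembly, to which the mm10 coordinates of the peaks belong. They were 38 of 21887 protein-coding genes, with 10 in Hoxa, 10 in Hoxb, 9 in Hoxc and 9 in Hoxd. Each cluster was taken from its first to its last member with 10 kb added on each side. The clusters lay at chr6:52152417-52270880 (Hoxa), chr11:96184316-96378254 (Hoxb), chr15:102911131-103046856 (Hoxc) and chr2:74658225-74775142 (Hoxd), and 2 further protein-coding genes that are not members reached into them.

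The peaks came from chromatin immunoprecipitation and sequencing in primary mouse embryonic fibroblasts (MEF) of strain C57BL/6, isolated at E15.5 and used at passages 2 to 4. Libraries of HMGA2, γ-H2AX and ATM from Hmga2 wt cells were used, 1 library each. They belong to 8 libraries that also cover input and Hmga2 Ko cells, which were not analysed here, and how many embryos each culture came from is not given in the sources used here. HMGA2 is a chromatin protein that binds AT-rich DNA through AT-hooks, ATM is a kinase activated by DNA breaks, and γ-H2AX (H2AXS139ph in the labels) is histone H2AX phosphorylated by ATM and related kinases. The lists held 152834 HMGA2, 124947 γ-H2AX and 119570 ATM peaks, with median scores of 23.8, 23.6 and 23.6 in that order. A score is the authors' own, -10 times the log10 of the peak's p, and 20 is the threshold of the lists. With 1 library per antibody no replicate error exists and no test was made, so intervals below are 95% exact Poisson (counts) or Wilson (shares) intervals that cover counting error only. Beside a count of 0, the share it allows is 3 counts of the total. Without input values, peaks near the threshold cannot be told apart from background. The lists hold no RNA values, so which Hox genes these cells express was not measured here.

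Promoter sequences (250 bases before to 50 after the transcription start, RefSeq, GRCm38.p6) were on hand for 22 members, with 24 promoters in all. The members without an entry were Hoxa4, Hoxb2, Hoxb3, Hoxb5, Hoxb6, Hoxb7, Hoxb9, Hoxb13, Hoxc5, Hoxc6, Hoxc8, Hoxc9, Hoxc10, Hoxc11, Hoxc12 and Hoxc13. Of the 24 promoters, 0 overlapped a peak of any antibody, which allows a share of up to 12.5%, where the shares of all 32851 promoters were 1.46% with an HMGA2 peak, 3.53% with γ-H2AX and 1.81% with ATM. The following 3 are shown because theirs were the only promoters with a peak within 1 kb, and all are on the minus strand. Hoxa11, a gene of the forearm and the urogenital tract (chr6:52245761-52246060), had an ATM peak 154 bp away. Hoxa3, needed for thymus and parathyroid (chr6:52213018-52213317), had a γ-H2AX peak 235 bp away. That start lies at the Hoxa7 side of the 44009 bp annotated span of Hoxa3, beyond Hoxa4, Hoxa5 and Hoxa6. Hoxa13, a gene of the digits and hindgut (chr6:52260831-52261130), had an HMGA2 peak 608 bp away. Capitals mark the GC box GGGCGG on either strand, and the search also covered the AT-rich letters AATATT, which read the same on both strands.
Hoxa11: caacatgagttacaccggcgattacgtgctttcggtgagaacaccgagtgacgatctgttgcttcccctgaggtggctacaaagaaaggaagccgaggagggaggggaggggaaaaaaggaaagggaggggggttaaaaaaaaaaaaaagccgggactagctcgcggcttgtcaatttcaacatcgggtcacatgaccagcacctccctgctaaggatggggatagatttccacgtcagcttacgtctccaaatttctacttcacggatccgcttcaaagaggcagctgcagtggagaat
Hoxa3: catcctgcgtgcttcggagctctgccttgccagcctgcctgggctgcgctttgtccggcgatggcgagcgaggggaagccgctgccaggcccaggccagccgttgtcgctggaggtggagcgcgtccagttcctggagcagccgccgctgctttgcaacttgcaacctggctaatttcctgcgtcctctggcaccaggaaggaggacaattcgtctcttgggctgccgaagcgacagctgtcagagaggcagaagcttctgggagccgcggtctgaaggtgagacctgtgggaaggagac
Hoxa13: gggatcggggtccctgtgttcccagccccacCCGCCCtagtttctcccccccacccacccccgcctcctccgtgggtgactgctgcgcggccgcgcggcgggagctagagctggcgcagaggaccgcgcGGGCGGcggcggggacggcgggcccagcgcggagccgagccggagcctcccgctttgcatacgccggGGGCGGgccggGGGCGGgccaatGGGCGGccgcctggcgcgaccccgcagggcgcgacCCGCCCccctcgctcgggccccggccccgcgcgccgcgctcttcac
These promoters held 49% (Hoxa11), 36% (Hoxa3) and 19% (Hoxa13) A and T, with 15, 20 and 45 CpG dinucleotides in that order. Hoxa13 was the poorest in A and T of the 24, and it alone of the 3 held the GC box. The 24 promoters had a median of 42.3% A and T, against 47.3% over all promoters of the table, and a median of 14.5 CpG, against 7. The GC box stood in 10 of the 24 (41.7%), against 35.7% of all promoters, and AATATT in 0 of the 24, against 6.81% of all. The sequences describe these windows only.

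Of 22 promoters of other genes inside the cluster bounds, 2 overlapped a peak, and both are shown with the bases inside the peak in capitals. Hoxb3os is a non-coding RNA gene whose promoter lies in Hoxb2 (chr11:96353345-96353644, minus strand), and 91 of its bases fell in a γ-H2AX peak with a score of 27.5. Evx2 is a homeobox gene next to Hoxd13 (chr2:74659508-74659807, minus strand), and its promoter held a whole ATM peak of 161 bases with a score of 22.1.
Hoxb3os: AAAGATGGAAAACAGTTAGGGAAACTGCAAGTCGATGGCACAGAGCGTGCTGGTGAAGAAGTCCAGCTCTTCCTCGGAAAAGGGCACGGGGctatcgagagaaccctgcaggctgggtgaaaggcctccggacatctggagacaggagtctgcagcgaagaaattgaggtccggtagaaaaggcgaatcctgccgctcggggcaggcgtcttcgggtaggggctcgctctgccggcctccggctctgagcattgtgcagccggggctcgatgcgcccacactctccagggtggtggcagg
Evx2: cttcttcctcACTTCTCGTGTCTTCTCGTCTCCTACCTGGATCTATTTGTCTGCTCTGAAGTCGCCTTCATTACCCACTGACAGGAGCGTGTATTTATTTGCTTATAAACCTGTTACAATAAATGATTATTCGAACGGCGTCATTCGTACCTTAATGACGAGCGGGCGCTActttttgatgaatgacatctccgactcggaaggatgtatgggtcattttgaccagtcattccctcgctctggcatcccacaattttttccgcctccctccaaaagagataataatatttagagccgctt
A and T made up 47.3% of the bases of the Hoxb3os promoter inside the γ-H2AX peak and 55.9% of those of the Evx2 promoter inside the ATM peak.

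All 4 clusters carried peaks of all 3 antibodies, at densities close to those of the genome for HMGA2 and ATM, and with more γ-H2AX peaks in Hoxa and Hoxc than in Hoxb and Hoxd. The clusters covered 565 kb and held 91 peaks, 34 of HMGA2, 35 of γ-H2AX and 22 of ATM. This came to 6.02 HMGA2 peaks per 100 kb (4.17 to 8.41), against 5.74 over the genome. The γ-H2AX density was 6.19 (4.31 to 8.61) per 100 kb, against 4.70 over the genome. The ATM density was 3.89 (2.44 to 5.89) per 100 kb, against 4.49 over the genome. Each genome value lay within the interval of the clusters. In the 500 kb on each side of the clusters, densities were 6.55 (HMGA2), 6.58 (γ-H2AX) and 4.98 (ATM) per 100 kb, each within the interval of the clusters too.

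γ-H2AX was the antibody whose counts differed most between clusters. Hoxa held 12 γ-H2AX peaks, or 10.1 per 100 kb (5.23 to 17.7), which was 2.16 times the genome density. Of genome windows as long as Hoxa, 6.85% held at least as many. Hoxc held 12 γ-H2AX peaks in a longer interval, 8.84 per 100 kb (4.57 to 15.4), and 10.8% of windows of its length held at least as many. Hoxb had 6 γ-H2AX peaks and Hoxd 5, numbers reached by 74.1% and 55.6% of windows of their lengths. The intervals of all 4 clusters overlap, and only that of Hoxa lies wholly above the genome density, with its lower bound at 5.23 against 4.70. The 500 kb sides of Hoxa held 6.4 γ-H2AX peaks per 100 kb, within its interval.

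HMGA2 peaks numbered 7 in Hoxa, 11 in Hoxb, 11 in Hoxc and 5 in Hoxd. Windows of the same length held at least as many in 48.4% (Hoxa), 50.6% (Hoxb), 26.6% (Hoxc) and 66.5% (Hoxd) of cases. ATM peaks numbered 4, 7, 7 and 4 in the same order of clusters, and windows of the same length held at least as many in 74.0%, 72.6%, 42.4% and 73.3% of cases. Hoxc was the densest cluster for both antibodies, and Hoxd was below the middle of the genome's windows for both.

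**Figure D1:**
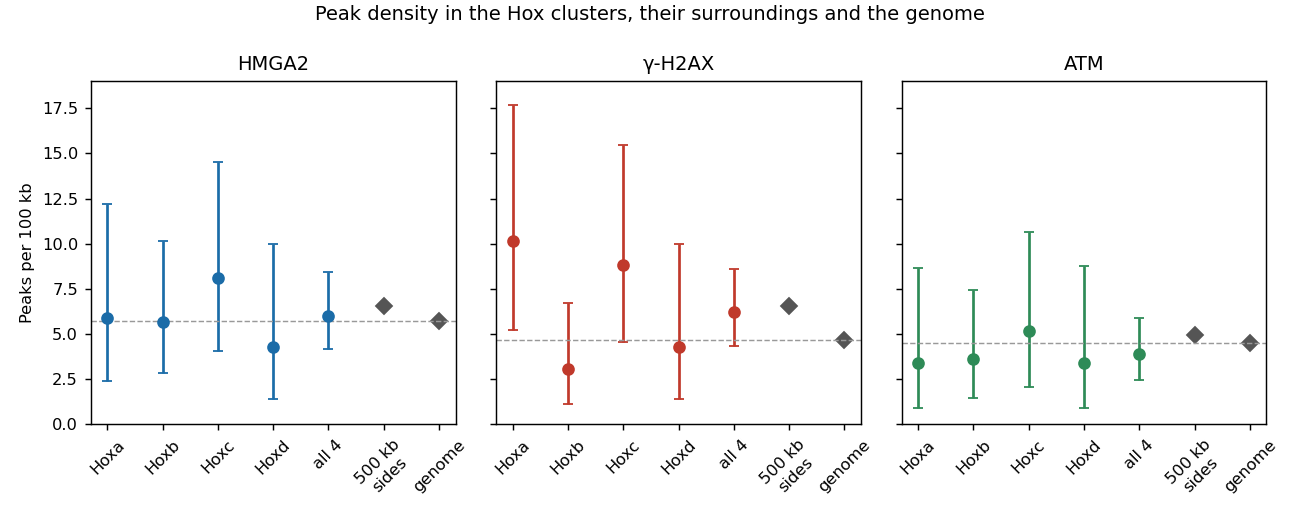
Peak density (peaks per 100 kb) of HMGA2, γ-H2AX and ATM in each Hox cluster and in all 4 together (circles, bars are 95% exact Poisson intervals), beside the 500 kb on each side of the clusters and the genome (diamonds, dashed line). Hoxa at 10.1 and Hoxc at 8.84 γ-H2AX peaks per 100 kb are the highest points, and every interval but that of γ-H2AX in Hoxa reaches the genome value.

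Most cluster peaks had scores near the threshold. Of the 91, 85 scored under 30 and 66 under 25, and widths ran from 116 to 285 bp with a median of 170 bp. Scores of 30 or more were found for 1 of 34 HMGA2 peaks (2.94%, against 11.6% of the list), 3 of 35 γ-H2AX peaks (8.57%, against 10.3%) and 2 of 22 ATM peaks (9.09%, against 10.2%). In the clusters the median score was 22.5 for HMGA2 peaks (23.8 in their list), 23.4 for γ-H2AX peaks (23.6) and 23.6 for those of ATM (23.6).

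The strongest of the 91 peaks was an ATM peak in the gene-poor gap between Hoxb13 and Hoxb9. It lay at chr11:96240863-96241054 with a score of 51.9, rank 301 of 119570 in the ATM list, and 30276 bp from Hoxb9. A second ATM peak with a score of 30.2 lay beside it at chr11:96240065-96240274, and one with a score of 20.8 completed a run of 3 within 1.99 kb. The next ATM peaks by score were 29.8 in Hoxa4 (chr6:52190970-52191085), 27.6 in Hoxb3 (chr11:96342812-96342972) and 27.4 between Hoxc13 and Hoxc12 (chr15:102935608-102935769). No HMGA2 or γ-H2AX peak lay in the stretch of the Hoxb13 to Hoxb9 gap that held the run.

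The highest-scoring γ-H2AX peak lay in Hoxd8, a gene of the trunk, at chr2:74707471-74707702 with a score of 37.3, rank 3366 of its list. It was followed by a peak in Hoxd3 (36.0, chr2:74740463-74740584) and by a pair of peaks between Hoxa4 and Hoxa5, inside the long span of Hoxa3 (33.3 at chr6:52199687-52199819 and 28.9 at chr6:52199860-52199983). The fifth was the peak near the Hoxa3 promoter (28.1, chr6:52212594-52212783). HMGA2 peaks reached at most 33.1, between Hoxc9 and Hoxc8 (chr15:102987822-102987955, rank 10384). The next were 29.8 beyond Hoxa13 (chr6:52270865-52270980), 29.2 past the 3′ end of Hoxd3 (chr2:74748881-74749096), 28.9 in Hoxb1 (chr11:96367653-96367776) and 28.8 in Hoxc6 (chr15:103007715-103007900). These 15 peaks thus spread over all 4 clusters, and γ-H2AX held its top 5 in Hoxa and Hoxd only.

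**Figure D2:**
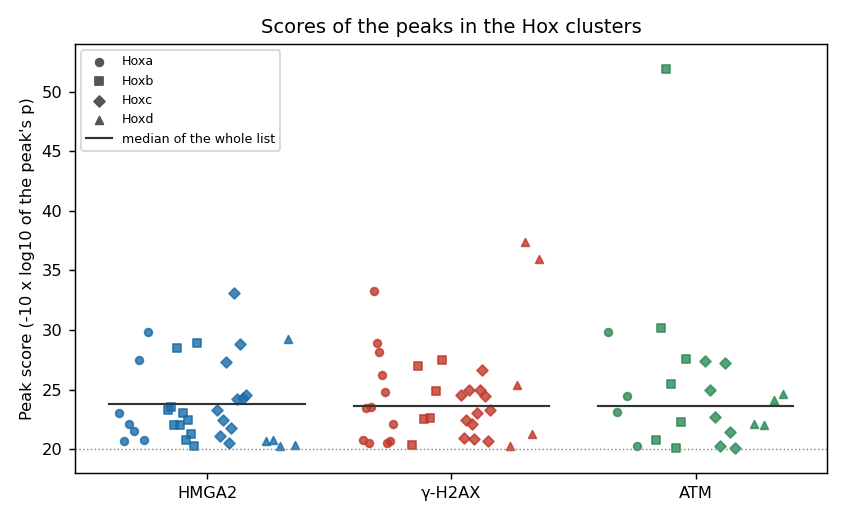
Score of each of the 91 peaks in the Hox clusters (-10 times log10 of p, no unit), by antibody, with marker shapes for the cluster, a line at the median of the whole list and a dotted line at the threshold of 20. Most points sit between 20 and 30, and the ATM peak of 51.9 in Hoxb stands above all others.

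Peaks of γ-H2AX fell mostly inside annotated Hox genes, and those of HMGA2 and ATM mostly outside them. Bodies of members made up 48.4% of the cluster length. The centre of 24 of 35 γ-H2AX peaks lay in a member's body (68.6%, 52.0 to 81.4), against 45.9% of the whole list in bodies of protein-coding genes. For HMGA2 it was 12 of 34 (35.3%, 21.5 to 52.1), against 40.4%, and for ATM 8 of 22 (36.4%, 19.7 to 57.0), against 40.2%. Protein-coding bodies made up 38.8% of the genome, so a share in the clusters is read against a longer gene-covered part than a share of the list.

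Much of the body length came from 4 members with long annotated spans, Hoxa3, Hoxb3, Hoxc4 and Hoxd3, and all of these but Hoxc4 run over other members. Peaks in a member inside such a span, such as ATM in Hoxa4 and HMGA2 in Hoxb4, are counted with the span. These spans took 139.9 kb and held 14 γ-H2AX peaks, or 10.0 per 100 kb, with 7 HMGA2 peaks (5.00) and 5 ATM peaks (3.57). The body length outside these spans, 134 kb, held 10 γ-H2AX peaks (7.47 per 100 kb), 5 HMGA2 (3.74) and 3 ATM peaks (2.24). Outside member bodies, 291 kb held 11 γ-H2AX peaks (3.78 per 100 kb), 22 HMGA2 (7.55) and 14 ATM peaks (4.81). γ-H2AX was therefore denser both in the long spans and in the remaining body length than outside bodies. HMGA2 and ATM were denser outside bodies than in either. For each antibody the long spans were denser than the remaining body length. No intervals were taken for these densities, which rest on small counts.

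Position along the clusters was read from the outer end of the group 13 gene. Between the outermost members, with the 10 kb flanks left out, lay 31 γ-H2AX, 27 HMGA2 and 18 ATM peaks. Over the 4 clusters, γ-H2AX peaks numbered 6, 5, 11 and 9 in 4 successive parts of equal length from the posterior to the anterior end, and HMGA2 peaks 7, 5, 7 and 8. ATM peaks numbered 6, 7, 2 and 3. The posterior parts thus held most ATM peaks, but 5 of the 7 in the second part came from Hoxb, among them the run of 3 between Hoxb13 and Hoxb9. In Hoxa the ATM peaks were 2, 0, 2 and 0.

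Long stretches lacked peaks of an antibody. The longest without ATM were 72.7 kb in Hoxd (holding Hoxd8, Hoxd3, Hoxd4 and Hoxd1), 54.7 kb in Hoxb (Hoxb13), 53.6 kb in Hoxc (Hoxc9, Hoxc8, Hoxc6 and Hoxc5) and 52.8 kb in Hoxa (Hoxa5, Hoxa6, Hoxa7, Hoxa9 and Hoxa10). γ-H2AX was missing from 92.2 kb of Hoxb, from its outer bound past Hoxb13 to the end of Hoxb9. No antibody had a peak in 27.5 kb of the gap between Hoxb13 and Hoxb9, in 25.1 kb with Hoxd1, in 20.9 kb with Hoxa10 and in 20.3 kb with Hoxc13.

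Local runs of 3 or more peaks at most 3 kb apart were few. HMGA2 had 1 run of 3 between Hoxb2 and Hoxb1 (4.82 kb) and 1 of 3 beyond Hoxc13 (1.33 kb), which made 17.6% of its cluster peaks (8.35 to 33.5), against 13.5% of its list. γ-H2AX had 1 run of 4 in Hoxc4 (2.66 kb), 11.4% of its cluster peaks (4.54 to 26.0), against 9.53%. The ATM run next to the strongest peak made 13.6% of its cluster peaks (4.75 to 33.3), against 5.93%. Each background share lay within the interval.

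**Figure D3:**
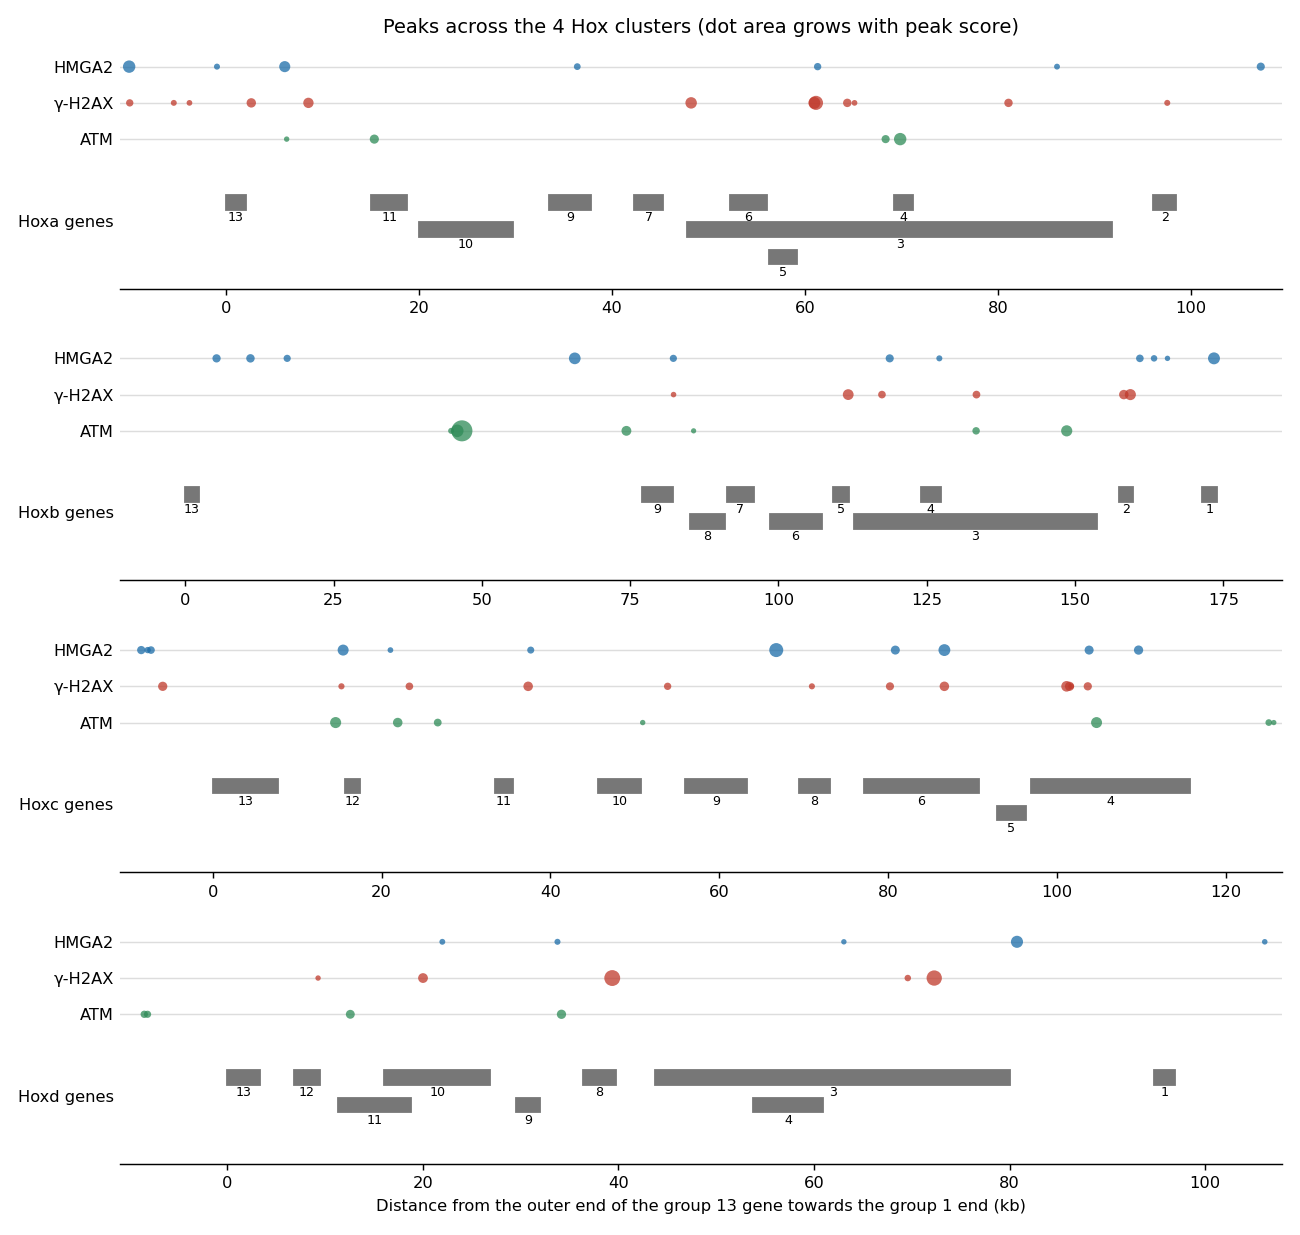
Peaks of HMGA2, γ-H2AX and ATM (dots, area grows with score) along each Hox cluster, with distance in kb from the outer end of the group 13 gene and members as grey boxes numbered by paralogue group. The Hoxb13 to Hoxb9 gap holds the largest ATM dot, and ATM dots are missing from 72.7 kb at the anterior end of Hoxd.

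Next, each member was asked for peaks at its own ends. Peaks within 1 kb of either end were found at 6 members for HMGA2 (15.8%, 7.44 to 30.4), against 17.9% of protein-coding genes. For γ-H2AX it was 10 members (26.3%, 15.0 to 42.0), against 23.3%, and for ATM 4 members (10.5%, 4.17 to 24.1), against 16.1%. Each background lay within the interval of the members. In all, 17 members had a peak of at least 1 antibody within 1 kb, and 21 had none, where 55.0% of protein-coding genes had none. The values of the 17 follow by paralogue group, from anterior to posterior. For members without a promoter entry the strand is not given, and ends are called lower or upper by coordinate.

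Among the 7 members of groups 1 to 3, γ-H2AX was at 4 and HMGA2 at 2, and ATM at none. Hoxb1, which sets the identity of a hindbrain segment, had the HMGA2 peak of 28.9 named above, 478 bp inside its 3′ end. Hoxa2, a patterning gene of the second pharyngeal arch, had a γ-H2AX peak of 20.8 (chr6:52163268-52163437), 851 bp inside its 3′ end. Hoxb2, active in the hindbrain, had a pair of γ-H2AX peaks in its body, 24.9 (chr11:96352432-96352608) and 27.5 (chr11:96353554-96353684). The first lies in Hoxb3os too, and the second reaches the Hoxb3os promoter shown above. Hoxa3 had the γ-H2AX peak of 28.1, 284 bp inside its 5′ end. The same peak lies in the non-coding RNA gene Hoxaas3 and is 2840 bp from Hoxa7. Hoxb3 counted for γ-H2AX through a peak of 27.0 outside its lower end (chr11:96305925-96306209), which is the peak of Hoxb5. Hoxd3, with a role in the upper neck vertebrae, had the HMGA2 peak of 29.2, 610 bp past its 3′ end, inside the non-coding RNA gene Haglr.

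Among the 15 members of groups 4 to 8, HMGA2 was at 1, γ-H2AX at 2 and ATM at 2. Hoxb4, known for expanding blood stem cells, had an HMGA2 peak of 20.8 (chr11:96321342-96321511), 127 bp inside its 3′ end. Hoxa4, of the neck vertebrae, had 2 ATM peaks, 29.8 in its body and 23.1 (chr6:52192459-52192613) 756 bp outside its upper end. Hoxb5 had the γ-H2AX peak of 27.0, which covers its upper end. Hoxb8, whose loss makes mice groom to excess, had an ATM peak of 20.1 (chr11:96279923-96280097), close to the threshold and 522 bp inside the lower end of its annotated span. The Hoxb8 promoter of the RefSeq table lay 1558 bp from that peak. Hoxd8 had the highest γ-H2AX score of the clusters, 37.3, 231 bp inside its 3′ end.

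Among the 16 members of groups 9 to 13, HMGA2 was at 3, γ-H2AX at 4 and ATM at 2. Hoxb9, of the thoracic skeleton, had HMGA2 (22.0, chr11:96276516-96276677) and γ-H2AX (20.4, chr11:96276544-96276716) peaks that cover its upper end. Hoxc10, of the lumbar region, had an ATM peak of 20.2 (chr15:102971980-102972153), 82 bp outside its upper end. Hoxa11 had the ATM peak of 24.4 (chr6:52245428-52245607), 203 bp inside its 5′ end. Hoxc12 had an HMGA2 peak of 27.3 (chr15:102936480-102936674) and a γ-H2AX peak of 20.9 (chr15:102936293-102936461), 152 and 365 bp outside its lower end, and the ATM peak of 27.4 lay 1057 bp from that end. Hoxd12, of the limb, had a γ-H2AX peak of 20.2 (chr2:74677410-74677583), 122 bp inside its 3′ end. Hoxa13 had a γ-H2AX peak of 24.8 (chr6:52258195-52258339) 514 bp past its 3′ end and the HMGA2 peak of 20.8 (chr6:52261738-52261907) 858 bp before its 5′ end, so the antibodies lay at opposite ends.

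Hoxa13, Hoxb9 and Hoxc12 were the members with 2 antibodies within 1 kb, all of them posterior, where 11.2% of protein-coding genes had at least 2. No member had all 3, against 1.12% of protein-coding genes. With windows of 1 kb around the known starts of 22 members, each antibody had 1 member (4.55%, 0.807 to 21.8), Hoxa13 for HMGA2, Hoxa3 for γ-H2AX and Hoxa11 for ATM. Of 17492 protein-coding genes, 10.2% had an HMGA2 peak there, 17.5% one of γ-H2AX and 9.98% one of ATM, each share within that interval. In merged 1 kb windows, which count each stretch once, HMGA2 had 4.14 peaks per 100 kb at members against 5.26 at protein-coding genes, γ-H2AX 6.89 against 6.88 and ATM 3.45 against 4.53.

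**Figure D4:**
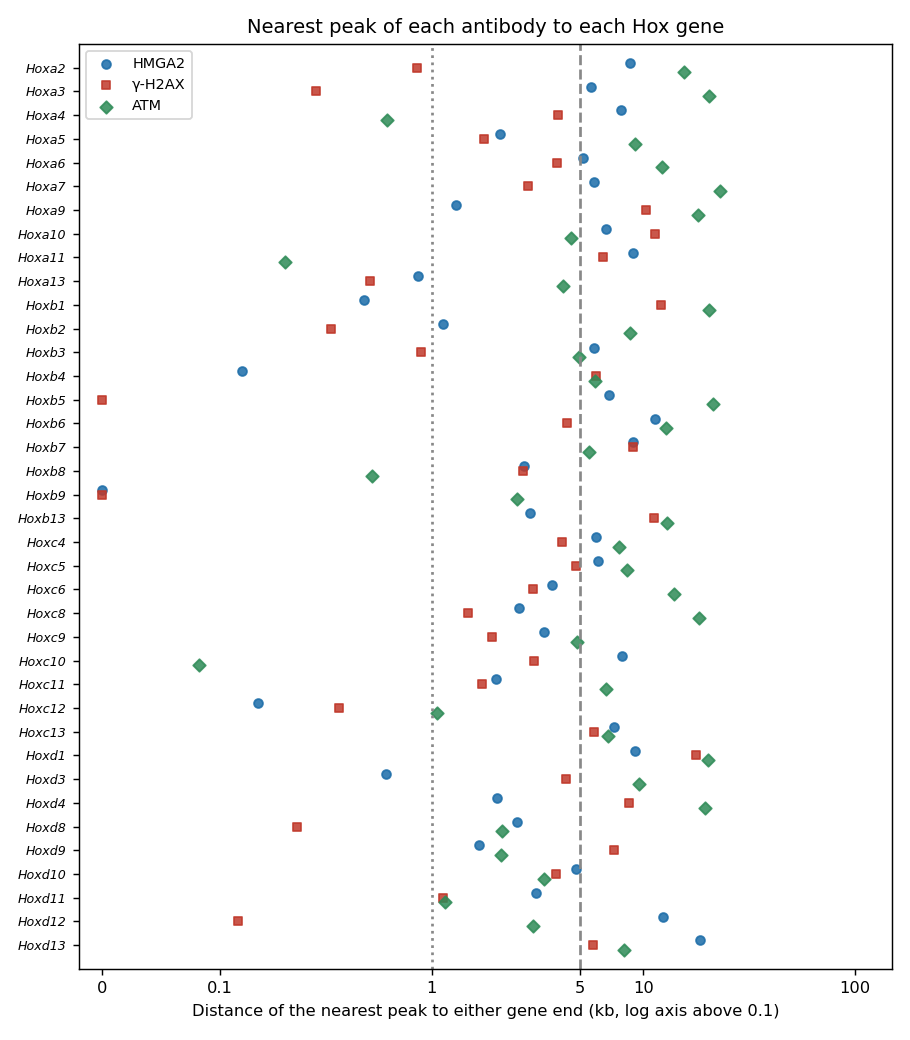
Distance (kb, log axis above 0.1) of the nearest HMGA2, γ-H2AX and ATM peak to either end of each of the 38 Hox genes, with lines at 1 kb (dotted) and 5 kb (dashed). HMGA2 points of 6 members, γ-H2AX points of 10 and ATM points of 4 lie left of the dotted line.

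Within 5 kb, most members had γ-H2AX, and ATM was at the fewest. γ-H2AX was at 26 members (68.4%, 52.5 to 80.9), against 58.5% of protein-coding genes, and HMGA2 at 20 (52.6%, 37.3 to 67.5), against 52.3%. ATM was at 15 (39.5%, 25.6 to 55.3), against 52.3%. All 3 backgrounds lay within the intervals. Neighbouring members share windows at this distance, and the counts rest on 25 γ-H2AX, 20 HMGA2 and 12 ATM peaks. The median distance from a member's end to the nearest peak was 3.46 kb for γ-H2AX, against 3.58 kb over protein-coding genes, 4.25 kb for HMGA2, against 4.57 kb, and 7.23 kb for ATM, against 4.62 kb. Member genes were short, with a median length of 3722 bp against 17169 bp over protein-coding genes. Counted over the whole gene body with 1 kb on each side, HMGA2 was at 31.6% of members, against 53.4% of protein-coding genes, γ-H2AX at 39.5%, against 59.5%, and ATM at 21.1%, against 55.5%. How far this rests on the shorter length of the members was not tested.

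ATM at 5 kb was found mostly at posterior members. It was at 11 of 16 members of groups 9 to 13, at 3 of 15 of groups 4 to 8 (Hoxa4, Hoxb8 and Hoxd8) and at 1 of 7 of groups 1 to 3 (Hoxb3). γ-H2AX was at 9, 12 and 5 members in the same order of groups, and HMGA2 at 10, 7 and 3. Over protein-coding genes the shares within 5 kb were 52.3% for ATM, 58.5% for γ-H2AX and 52.3% for HMGA2. Members of a group are neighbours in the same stretches, so these counts are not independent, and no test was made of the difference between groups. For example, 1 ATM peak counted for Hoxd10, Hoxd11 and Hoxd12.

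Peaks of all 3 antibodies within 5 kb were found at Hoxa13, Hoxb8, Hoxb9, Hoxc9, Hoxc12, Hoxd8, Hoxd10 and Hoxd11. These 8 were 6 posterior genes and a pair of group 8 genes, and 20.8% of protein-coding genes had all 3. With at least 2 antibodies it was 19 members, against 56.2% of protein-coding genes. No peak within 5 kb was found at 4 members, against 13.9% of protein-coding genes. They were Hoxb7, Hoxd1, a gene of pain-sensing neurons, Hoxc13, a gene of hair and nails, and Hoxd13, a gene of the digits. The remaining 17 members had a peak within 5 kb but none within 1 kb. They were Hoxa5, Hoxa6, Hoxa7, Hoxa9, Hoxa10, Hoxb6, Hoxb13, Hoxc4, Hoxc5, Hoxc6, Hoxc8, Hoxc9, Hoxc11, Hoxd4, Hoxd9, Hoxd10 and Hoxd11. The farthest nearest peaks were 18.5 kb from Hoxd13 for HMGA2, 17.6 kb from Hoxd1 for γ-H2AX and 23.0 kb from Hoxa7 for ATM.

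**Figure D5:**
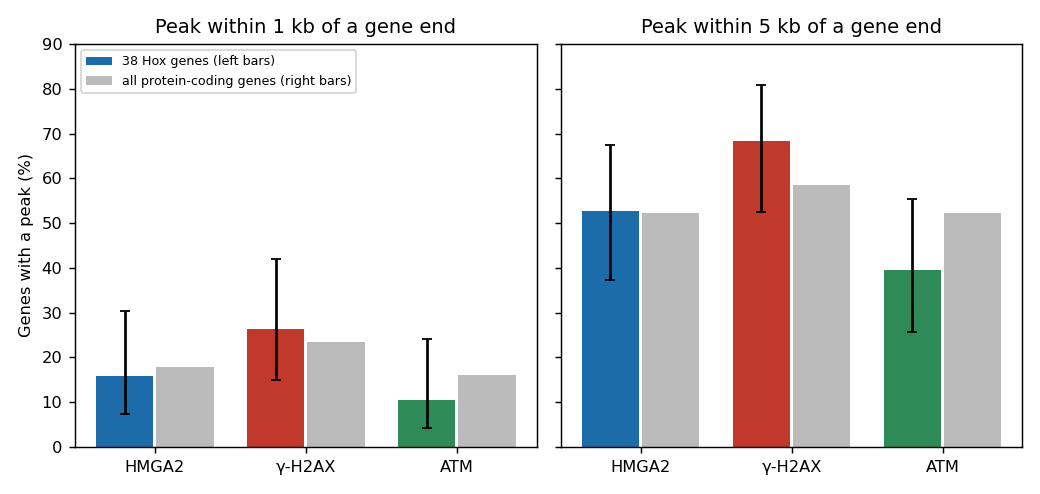
Share of genes (%) with a peak within 1 kb (left panel) and 5 kb (right panel) of an end, for the 38 Hox genes (coloured bars, 95% Wilson intervals) and all protein-coding genes (grey bars). Every grey bar ends within the interval beside it, with ATM at 5 kb at 39.5% of Hox genes against 52.3%.

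Peaks of different antibodies rarely lay on each other. HMGA2 and γ-H2AX shared 3 of 34 HMGA2 peaks (8.82%, 3.05 to 23.0), which was 8.57% of the 35 γ-H2AX peaks, against 2.67% of the HMGA2 list. The interval lies just above the background and rests on 3 peaks, which have no replicate check. They lay beyond Hoxa13 with 78 bp in common, at the upper end of Hoxb9 with 134 bp, and in Hoxc6 with 144 bp, where the centres were 2 bp apart. The HMGA2 peak beyond Hoxa13 crosses the outer bound of Hoxa and has its centre outside it. That peak is counted under each overlap rule used here. The share of 8.82% thus depends on where the bound is set. Of the 33 HMGA2 peaks centred inside the clusters, only those at Hoxb9 and in Hoxc6 overlapped a γ-H2AX peak. Whether an interval for these would still lie above the background was not computed. HMGA2 and ATM shared 0 of 34, which allows a share of up to 8.82%, against 2.42% of the list. γ-H2AX and ATM shared 1 of 35 γ-H2AX peaks (2.86%, 0.506 to 14.5), which was 4.55% of the 22 ATM peaks, against 2.68%. It lay in Hoxb3 with 99 bp in common. With an overlap of 50% of the shorter peak the counts were again 3 (list 1.59%), 0 (list 1.46%) and 1 (list 1.69%). With centres within 500 bp, HMGA2 peaks met γ-H2AX at 7 of 34 (20.6%, 10.3 to 36.8), against 6.73% of the list, which lies below that interval of 1 pair of libraries. In the same way HMGA2 peaks met ATM at 2 of 34 (5.88%, 1.63 to 19.1), against 5.97%, and γ-H2AX peaks met ATM at 1 of 35, against 6.40%. The places where HMGA2 and γ-H2AX lay side by side without overlap were in Hoxc4, between Hoxa4 and Hoxa5, outside Hoxc12 and between Hoxc11 and Hoxc10.

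The authors' promoter region lists were also read in the clusters. The γ-H2AX promoter list of 2220 regions had 1, the peak outside Hoxc12, so 2.63% of members had a region within 1 kb, against 9.03% of protein-coding genes. The ATM promoter list of 866 regions had 2, the peak of 23.1 outside Hoxa4 and the peak of 27.6 in Hoxb3. With Hoxa4 alone within 1 kb, 2.63% of members had a region, against 3.44% of protein-coding genes. Each share of members rests on 1 gene, so no difference from the background is read from it.

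The partners and regulators of Hox genes were read by the same windows, where 17.9% of protein-coding genes had HMGA2 within 1 kb, 23.3% γ-H2AX and 16.1% ATM. Of 9 TALE cofactor genes, whose proteins bind DNA together with Hox proteins, HMGA2 was within 1 kb of 2, γ-H2AX of 3 and ATM of 1. Meis1 had overlapping γ-H2AX (27.3) and ATM (24.7) peaks, and Pknox2 a γ-H2AX peak of 26.5. Polycomb and trithorax proteins keep Hox genes off or on. Of 21 regulators, which were genes of these groups and Ctcf, of neither group, HMGA2 was at 3, γ-H2AX at 5 and ATM at 4. The highest scores were HMGA2 at Kdm6a, an H3K27 demethylase gene (41.3), and ATM at Ezh2, the H3K27 methyltransferase gene (33.9), and at Kmt2a, an H3K4 methyltransferase gene (31.7). Of 8 ParaHox and Evx genes, relatives of the Hox genes, HMGA2 was at 1, γ-H2AX at 1 and ATM at 2. Scores were 27.2 for ATM at Gsx1, 21.8 for HMGA2 at Evx1 and 21.8 for γ-H2AX at Evx2, and an ATM peak of 20.5 overlapped the HMGA2 peak at Evx1. The ATM peak in the Evx2 promoter shown above is not among these, since it lay over 1 kb from both annotated ends of that gene. Within 5 kb, HMGA2 was at 2 of these 8 genes, γ-H2AX at 5 and ATM at 8, against 52.3% (HMGA2), 58.5% (γ-H2AX) and 52.3% (ATM) of protein-coding genes. Of the 21 regulators, HMGA2 was within 5 kb of 13, γ-H2AX of 17 and ATM of 9. Of the 9 cofactors, 7 had HMGA2, 7 γ-H2AX and 5 ATM within 5 kb.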

How the data were processed

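Peak lists of the HMGA2, γ-H2AX and ATM libraries from Hmga2 wt MEF were used, 3 of 8 libraries, 1 per antibody. Peaks were called with MACS14 without its model, at p 0.01 and a shift of 30 bp, per the labels. Trimmomatic, Bowtie2, SAMtools, MACS, HOMER and mm10 are named in the submitters' processing notes, and the control library of the calls is not given in the sources used here. The deposited score of a peak is -10 times the log10 of its p and is not scaled between libraries. The deposited promoter region lists are of another kind (other), with start and end only, and how they were chosen is not given in the sources used here. Read depth is unknown. A deposited mean profile and 2 plotting configurations were not used.

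Members were taken by name and no measured value entered the choice, but earlier results of these data were known when members and lists were chosen. Peaks were assigned by an overlap of at least 1 bp, with code tested on simulated data, in Python 3.11.15 with numpy 2.4.6, pandas 2.3.3 and scipy 1.17.1. Genes were taken from RefSeq (GRCm38.p6), without exon or UTR positions, and strand was known only from promoter entries. Windows of 1 kb and 5 kb stood on either side of either gene end. Genome density was taken over 2661 Mb, and windows of a cluster's length were tiled from end to end of each chromosome. Named were all members with a peak within 1 kb or with none within 5 kb, the 5 highest-scoring peaks of each antibody, and up to 5 promoters with the nearest peaks, of which those within 1 kb are printed. Of the other gene lists, the 3 highest-scoring peaks were named. The 500 kb sides, merged windows, long spans, equal parts of a cluster, runs and non-coding genes were chosen after seeing the data. Alternatives changed cluster bounds, windows, score filters and the overlap that counts as shared.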

Additional observations from a re-analysis of the deposited data

How the results depend on the processing

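Of 54 alternative values, 36 stayed within the interval of the share reported or near the count reported, and 18 moved. Most that moved came from score filters, since 85 of 91 cluster peaks scored under 30. With scores of 30 or more, the clusters held 1 HMGA2, 3 γ-H2AX and 2 ATM peaks, and among the 10000 highest-scoring peaks of each list 0, 3 and 1. Members with such a peak within 1 kb were 0% (HMGA2), 2.63% (γ-H2AX) and 0% (ATM), against 2.41%, 3.30% and 1.81% of protein-coding genes, and within 5 kb 5.26%, 7.89% and 0%, against 9.43%, 10.97% and 7.33%. At the 5′ end only, 4.55% of 22 members had an HMGA2 peak (background 10.2%), 4.55% one of γ-H2AX (17.5%) and 4.55% one of ATM (9.98%) within 1 kb. With the gene body added, HMGA2 was at 31.6% (background 53.4%), γ-H2AX at 39.5% (59.5%) and ATM at 21.1% (55.5%). ATM was at 5.26% with 500 bp windows (background 8.86%) and at 15.8% with 2 kb (28.3%). With 50 kb flanks the clusters held 41 ATM peaks over a longer interval, 4.63 per 100 kb. With centres within 500 bp as shared, HMGA2 peaks met γ-H2AX at 7 and ATM at 2. No paired analysis was possible because each antibody has 1 library, and for the same reason no library could be left out. Depth is unknown, so which weaker sites were missed cannot be said.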

Other observations

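The clusters also held 34 non-coding genes, 27 lncRNA and 6 miRNA genes among them. HMGA2 peaks were centred in 5, γ-H2AX peaks in 8 and ATM peaks in 5, and 0 of the 6 miRNA genes held a peak. The shares over all non-coding genes of the genome were not taken, so these counts cannot be read as high or low. The miRNA genes are also very short, so a count of 0 says little about them. The genes named next were chosen after their values were seen. Hotair, a long non-coding RNA gene between Hoxc12 and Hoxc11, held a γ-H2AX peak of 22.5 and an ATM peak of 22.7. Hottip, next to Hoxa13, held 2 γ-H2AX peaks, the higher with a score of 20.7. Hoxa11os, antisense to Hoxa11, held the ATM peak of 24.4 that also lies in Hoxa11. Hoxb5os held the γ-H2AX peak of 27.0 that covers the end of Hoxb5.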
